A study of Mus musculus with 2 samples.

Results

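The 9 microRNA (miRNA) genes Mir770, Mir673, Mir493, Mir337, Mir540, Mir665, Mir341, Mir1188 and Mir370 lie in and just beyond the noncoding gene Meg3 and within the noncoding gene Rian, in the imprinted Dlk1-Dio3 domain of mouse chromosome 12. They were chosen by name and position, with earlier results of these data known. They are 9 of the 2202 miRNA genes counted in both libraries. MicroRNA sequencing had been made from total RNA of tissue labelled layer of hippocampus, in 2 libraries that form 1 group. The mice were male, 25 days old and of the strain B6CASTF1/J, a first-generation hybrid of C57BL/6J and CAST/EiJ, and no treatment is named. Replicates 1 and 2 come from different biosamples under the same donor entry, which does not show that they are separate animals, so the spread between these samples may be partly technical. The counts do not separate the parental alleles.

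A miRNA gene is transcribed into a longer RNA that folds into a hairpin, from which the enzymes Drosha and Dicer cut short mature miRNAs, named 5p and 3p after the arm of the hairpin. The seed, bases 2 to 8 of the mature miRNA, pairs with target messenger RNAs. In the Dlk1-Dio3 domain the noncoding RNAs and miRNAs, Meg3 and Rian among them, are expressed from the maternal chromosome, and the protein-coding genes Dlk1, Rtl1 and Dio3 from the paternal one. The domain is known for strong expression in the brain, and Rian also carries a series of small nucleolar RNAs. Mir770, Mir493, Mir337, Mir665 and Mir370 have human counterparts named with the same number, whereas Mir673, Mir540, Mir341 and Mir1188 are known from rodents.

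The members lie on the plus strand of mm10, spread over 54.6 kb. Mir770 (ENSMUSG00000076451.1, chr12:109563692-109563785) lies inside Meg3. It is exonic in 1 of the 4 Meg3 transcripts of GENCODE M21 that span it and intronic in the other 3. Mir673 (ENSMUSG00000076316.1, chr12:109571990-109572080) begins just past the annotated end of Meg3, with 263 bases between. Mir493 (ENSMUSG00000077025.2, chr12:109580233-109580315) stands alone 8506 bases beyond Meg3. Mir337 (ENSMUSG00000065526.4, chr12:109585789-109585885), Mir540 (ENSMUSG00000072900.2, chr12:109586080-109586146) and Mir665 (ENSMUSG00000076313.1, chr12:109586314-109586407) form a tight group before Rtl1, which is read from the minus strand. Mir665, the nearest of them, is 2785 bases from Rtl1, so none of the 3 is antisense to it. Mir341 (ENSMUSG00000070101.1, chr12:109611500-109611595), Mir1188 (ENSMUSG00000080406.1, chr12:109611822-109611941) and Mir370 (ENSMUSG00000065433.1, chr12:109618258-109618336) lie in Rian, where each is intronic in both of the transcripts that span it.

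The RefSeq table (GRCm38.p6) held all 9 hairpins, at the same coordinates as GENCODE, and 18 mature sequences from 19 to 26 bases long. The reads were counted per gene and not per arm, so both arms are given for the members on which the results turn. These are the 4 most abundant genes and the neighbours Mir540 and Mir665. The seed is in capitals.
miR-770-5p: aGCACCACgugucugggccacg
miR-770-3p: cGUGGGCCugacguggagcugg
miR-337-5p: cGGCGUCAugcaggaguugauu
miR-337-3p: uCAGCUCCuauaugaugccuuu
miR-370-5p: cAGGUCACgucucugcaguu
miR-370-3p: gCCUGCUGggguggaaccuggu
miR-341-5p: cGGUCGGCcgaucgcucgguc
miR-341-3p: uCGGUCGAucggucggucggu
miR-540-5p: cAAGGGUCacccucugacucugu
miR-540-3p: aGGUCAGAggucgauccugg
miR-665-5p: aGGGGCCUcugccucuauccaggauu
miR-665-3p: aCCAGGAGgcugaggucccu

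The 18 mature sequences carried 18 different seeds, so no seed was shared between members. Of the 18 seeds, 3 were also found in a mature miRNA of another mouse gene. Among all 1738 mature sequences of the table the share was 32.0%. All 3 partners were detected. The one inside the same domain was Mir1193, whose 3p arm has the seed of miR-370-5p, at 60.2 CPM in replicate 1 and 51.3 CPM in replicate 2 (counts per 1000000 gene-assigned counts). Mir6985 (3.67 and 4.26 CPM) shares the seed of miR-673-5p, and Mir6915 (6.56 and 5.11 CPM) that of miR-540-3p. The pair from the domain reads as follows.
miR-370-5p: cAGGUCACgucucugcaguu
miR-1193-3p: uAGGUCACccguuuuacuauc

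With 1 base fewer, bases 2 to 7, the partners of miR-673-5p also included miR-27a-3p and miR-27b-3p, which are widely expressed miRNAs. They do not share its whole seed.
miR-673-5p: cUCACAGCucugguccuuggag
miR-27b-3p: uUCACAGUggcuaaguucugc
Mir27b stood at 1118 CPM in replicate 1 and 1845 CPM in replicate 2, above Mir673 in both, and Mir27a at 46.1 and 108 CPM, below Mir673 in both. A match over 6 bases is common, with 55.5% of all 1738 mature sequences sharing one with another gene and 9 of the 18 of the members.

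All 9 members were detected, which here means at least 10 counts in both libraries, against 20.2% of all miRNA genes. The lowest member mean was 83.9 CPM, and the median detected miRNA gene had 51.2 CPM. The highest member mean was 259 times the lowest, and 1 gene carried most of their counts. Levels are given as CPM without division by length. This assumes that a read covers about 1 mature miRNA whatever the length of the hairpin, which counts per gene do not show.

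Mir770, in Meg3, had 22960 CPM in replicate 1 (119018 counts) and 20419 CPM in replicate 2 (119885 counts), a mean of 21689.7 ± 1797 CPM (SD, n = 2). It ranked 10 of 2202 miRNA genes by mean CPM. Ranks leave out reads aligned to several places, 43.6% of all reads in replicate 1 and 43.2% in replicate 2. Genes of miRNAs with several copies can therefore rank too low. Mir770 took 74.1% of the members' summed counts in replicate 1 and 69.9% in replicate 2. Every other member was lower by at least 18013 CPM in each library.

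Mir337, first of the tight group before Rtl1, had 2153 CPM in replicate 1 and 2406 CPM in replicate 2 (mean 2279 ± 179 CPM, rank 65). Mir540, next to it, had 944 and 1179 CPM (mean 1061 ± 166 CPM, rank 104). Mir665, the last of the group, had 176 CPM in replicate 1 and 505 CPM in replicate 2 (mean 340 ± 233 CPM, rank 149). Levels thus stepped down from the first to the last gene of this group in both libraries. Mir665 had the widest spread of the 9 members, with an SD of 68.3% of its mean, and Mir337 the narrowest at 7.86%.

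In Rian, Mir370 had 2391 CPM in replicate 1 and 1554 CPM in replicate 2 (mean 1972 ± 592 CPM, rank 70). Mir341 had 1563 and 2152 CPM (mean 1857 ± 417 CPM, rank 74). Mir1188, which lies between them, had 80.6 and 104 CPM (mean 92.5 ± 16.8 CPM, rank 194). Mir341 and Mir370 therefore flank a gene that had a far lower level in both libraries.

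Mir673, at the end of Meg3, had 654 CPM in replicate 1 and 817 CPM in replicate 2 (mean 736 ± 115 CPM, rank 116). Mir493 had 78.5 CPM (407 counts) and 89.2 CPM (524 counts), a mean of 83.9 ± 7.59 CPM and rank 202. Even for Mir493, the least abundant member, counting error was small, with exact 95% Clopper-Pearson intervals of 71.1 to 86.5 CPM in replicate 1 and 81.8 to 97.2 CPM in replicate 2. The intervals cover counting error only and treat reads as independent. The labels mention no molecular identifiers, so repeated reads of 1 molecule could not be told apart and the intervals may be too narrow.

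**Figure D1:**
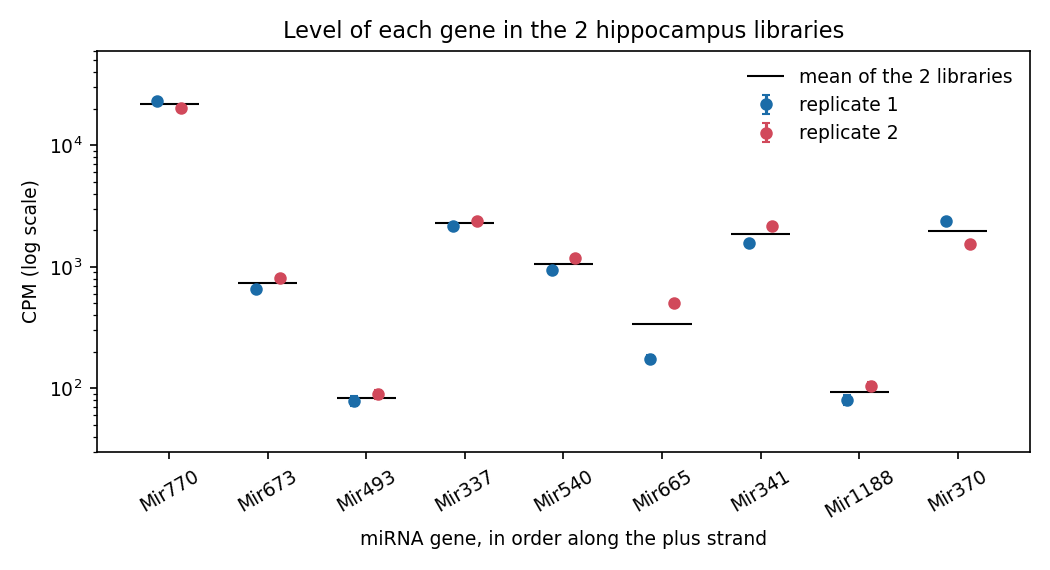
CPM (log scale) of each of the 9 genes, in their order along the plus strand, in replicate 1 (blue) and replicate 2 (red), with exact 95% intervals of the counts and a black line at the mean of the 2 libraries. Mir770 stands at 20419 CPM or more, Mir493 and Mir1188 lie between 78.5 and 104 CPM, and Mir665 shows the widest gap between the libraries.

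Ordered by mean, the members ran Mir770, Mir337, Mir370, Mir341, Mir540, Mir673, Mir665, Mir1188 and Mir493. Of the 8 neighbouring pairs in this order, 3 were not separated by more than the spread between libraries. Mir337 exceeded Mir370 by 307 ± 771 CPM (mean gap and its SD, n = 2) and Mir370 exceeded Mir341 by 115 ± 1008 CPM. Both pairs stood in opposite orders in the 2 libraries. Mir1188 exceeded Mir493 by 8.64 ± 9.22 CPM, in the same order in both. The other gaps were larger than their SD, from 19410 ± 1976 CPM between Mir770 and Mir337 to 248 ± 216 CPM between Mir665 and Mir1188.

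The ratio of 2 genes within a library does not depend on how libraries are scaled, and 3 pairs of members lie under 1 kb apart. Mir341 and Mir1188, with 226 bases between them in the same Rian introns, had a ratio of 19.4 in replicate 1 (17.6 to 21.4, an exact 95% interval) and of 20.6 in replicate 2 (19.0 to 22.4). These intervals overlap. Mir337 and Mir540, 194 bases apart, differed 2.28-fold (2.20 to 2.36) in replicate 1 and 2.04-fold (1.98 to 2.10) in replicate 2, close values whose intervals do not overlap. Mir540 and Mir665, 167 bases apart, differed 5.37-fold (5.00 to 5.77) in replicate 1 and 2.33-fold (2.24 to 2.44) in replicate 2. Of the 3 close pairs, this one changed most between the libraries. Between the more distant neighbours Mir770 and Mir673, the ratio was 35.1 in replicate 1 and 25.0 in replicate 2.

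**Figure D2:**
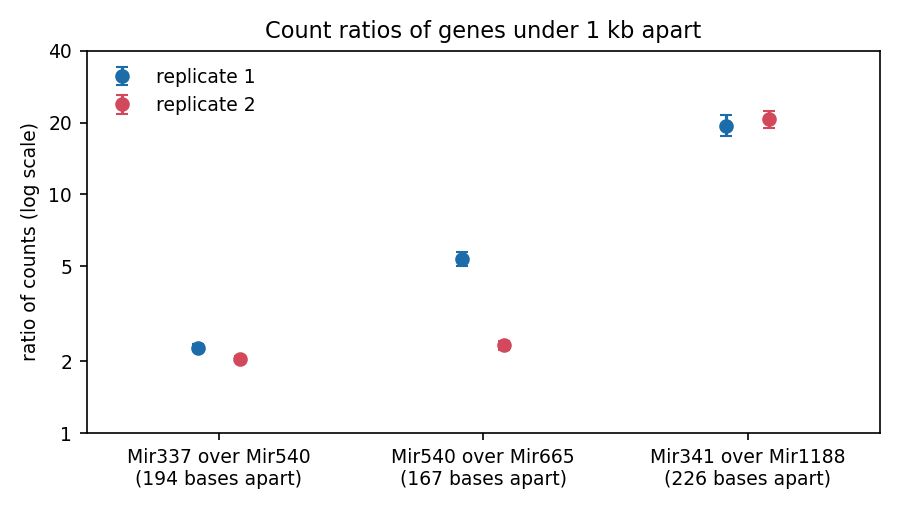
Ratio of the counts of 2 neighbouring genes (log scale) within replicate 1 (blue) and replicate 2 (red), for the 3 pairs under 1 kb apart, with exact 95% intervals. Mir341 over Mir1188 was near 20 in both libraries, whereas Mir540 over Mir665 was 5.37 in replicate 1 and 2.33 in replicate 2.

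The hairpins of this close pair are shown because the ratio of their levels changed most between the libraries among the 3 close pairs. Mature sequences are in capitals.
Mir540: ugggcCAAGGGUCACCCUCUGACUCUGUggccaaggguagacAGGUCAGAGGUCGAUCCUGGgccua
Mir665: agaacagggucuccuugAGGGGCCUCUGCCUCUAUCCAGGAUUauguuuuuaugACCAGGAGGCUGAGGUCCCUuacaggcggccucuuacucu

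Mir337 was the single member that overlaps another annotated miRNA gene. Mir3544 (ENSMUSG00000105210.1, chr12:109585813-109585873) lies on the opposite strand and covers bases 25 to 85 of the 97-base Mir337 hairpin, in capitals here because the count of Mir337 depends on them.
Mir337: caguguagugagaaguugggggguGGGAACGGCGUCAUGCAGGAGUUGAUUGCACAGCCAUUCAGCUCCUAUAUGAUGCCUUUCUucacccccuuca
Both mature miRNAs of Mir337 fall in the shared stretch. On the strand of the gene, Mir337 had 11159 counts in replicate 1 and 14127 in replicate 2, and Mir3544 had 0 in both, which allows up to 0.579 and 0.511 CPM. In the deposited count column that ignores strand, both genes had 0 counts, so the values of Mir337 rest on the stranded column. The other 8 members had the same counts with and without regard to strand, and all 9 had 0 counts on the opposite strand.

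How far did the members differ between the libraries? In a 2-sided exact binomial test of each gene's counts, with Benjamini-Hochberg adjustment over the 472 genes that averaged 10 counts or more, 8 of 9 members passed an adjusted p of 0.05. Over all 472 genes 282, or 59.7%, passed. Of the 291 genes averaging 100 counts or more, to which all 9 members belong, 83.2% passed. Higher in replicate 2 were 6 members (39.4% of all genes) and higher in replicate 1 were 2 (20.3% of all genes). Among the 291 genes averaging 100 counts or more, 160 passed as higher in replicate 2 and 82 as higher in replicate 1. The test compares 2 libraries by read sampling alone and leaves out the spread between samples, so passing it shows no difference beyond that spread. At least 1.5-fold apart on the log2(CPM + 1) scale were 2 of 9 members, against 29.0% of all 472 genes.

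The 2 members past 1.5-fold were Mir665 and Mir370, and they lay on opposite sides. Mir665 was 2.87 times as high in replicate 2 (2.66 to 3.09, an exact 95% interval from the counts), a log2 ratio of 1.52. Of the 291 genes averaging 100 counts or more, 17 had a log2 ratio at least as large in size, Mir665 included. Mir370 was 1.54-fold higher in replicate 1 (1.497 to 1.581), a log2 ratio of -0.62, and 68 of the 291 genes had one as large in size. Mir770 was 1.12-fold higher in replicate 1 (1.12 to 1.13).

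The remaining members lay within 1.38-fold. Mir341 was 1.38-fold higher in replicate 2 (1.34 to 1.42), Mir1188 1.29-fold (1.14 to 1.47), and Mir673 and Mir540 1.248-fold each (1.194 to 1.305 and 1.203 to 1.295). Mir337 was 1.12-fold higher (1.09 to 1.15). Mir493 had a fold of 1.137 (0.9967 to 1.297) and did not pass the exact test (adjusted p = 0.0855).

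Small ratios depended on the scaling. The median log2 ratio of replicate 2 over replicate 1 was 0.17 over the 291 genes averaging 100 counts or more, and the trimmed mean of M-values (TMM) scaling moves every log2 ratio by -0.17. Relative to that median, Mir337 (-0.01) and Mir493 (0.01) lay at the centre of all genes. Mir673 and Mir540 lay 0.15 above it, Mir1188 0.20, Mir341 0.29 and Mir665 1.345 above, and Mir770 -0.34 and Mir370 -0.79 below. The call of Mir337 was lost under TMM, with a log2 ratio of -0.01 (adjusted p = 0.661, exact binomial test). Under DESeq2 size factors that of Mir1188 was lost too, at 0.19 (adjusted p = 0.0639, exact binomial test). Members past the adjusted p of 0.05 were then 7 under TMM, 5 of them higher in replicate 2, and 6 under DESeq2 size factors, 4 of them higher in replicate 2. Among all 472 genes tested, 278 passed under TMM (141 higher in replicate 2) and 274 under DESeq2 size factors (132 higher in replicate 2).

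**Figure D3:**
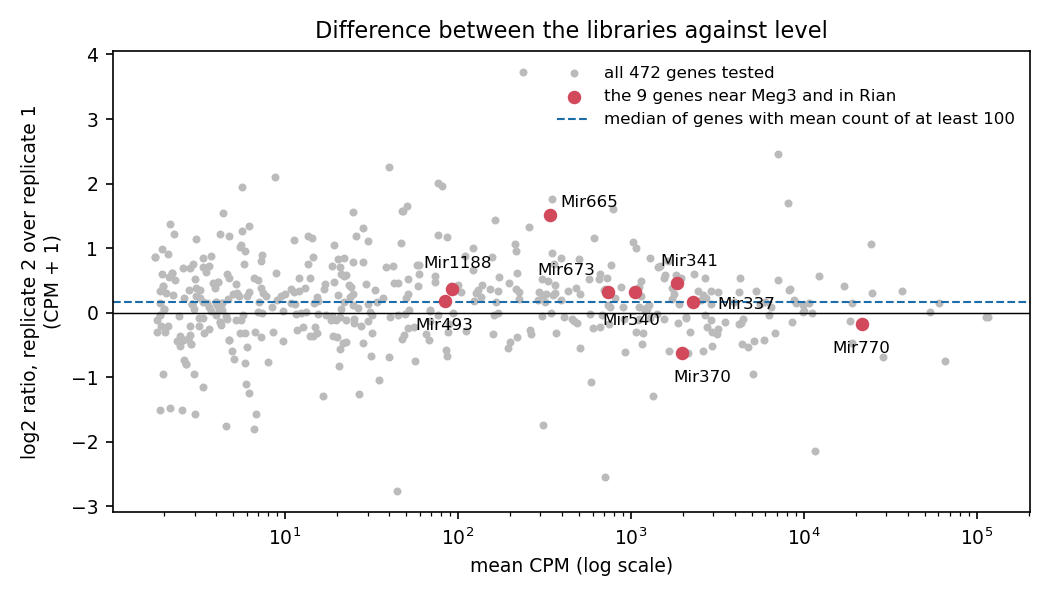
Log2 ratio of replicate 2 over replicate 1 on the CPM + 1 scale against mean CPM (log scale) for the 472 genes tested (grey) and the 9 members (red, named). The dashed line is the median of genes averaging 100 counts or more, at 0.17. Mir665 lies at 1.52 and Mir370 at -0.62, and the others are closer to the line.

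Summed, the 9 genes took 3.10% of the gene-assigned counts in replicate 1 (3.09 to 3.12, an exact 95% interval) and 2.92% in replicate 2 (2.91 to 2.94), a mean of 3.01% ± 0.126 (SD, n = 2). Without Mir770 the sum was 8040 CPM in replicate 1 and 8806 CPM in replicate 2, a log2 ratio of 0.13, below the median of 0.17 over the 291 genes averaging 100 counts or more. Its direction turned with the scaling, at -0.04 under TMM and -0.05 under DESeq2 size factors. The sum without Mir770 and its rescaling were chosen after seeing the data.

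Neighbouring sets of the same domain served for comparison, 7 miRNA genes that overlap Rtl1 and 39 genes from Mir379 to Mir410 and just beyond. Of the 7, 6 are antisense to Rtl1, and Mir3071 lies on its strand. The members gave 15.1% of the counts of these 55 genes in replicate 1 and 16.3% in replicate 2. The Rtl1-overlapping genes gave 50.2% and 40.7%, led by Mir127 (65791 ± 23670 CPM), Mir433 (19080 ± 1478 CPM) and Mir434 (1641 ± 629 CPM). The Mir379 to Mir410 genes gave 34.7% and 43.0%, led by Mir487b (18402 ± 1130 CPM), Mir382 (12210 ± 3351 CPM) and Mir541 (8747 ± 865 CPM). Detected were 9 of 9 members, 5 of 7 Rtl1-overlapping genes (5 of the 6 antisense ones) and 35 of 39 genes of the distal cluster. The median of the gene means was 1061 CPM for the members, 1424 CPM for the Rtl1-overlapping genes and 395 CPM for the distal cluster, against 0 CPM for all 2202 genes.

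The median log2 ratio between the libraries was 0.32 for the members, 0.16 for the Rtl1-overlapping genes, 0.23 for the distal cluster and 0.16 for all 472 genes tested. The exact binomial test was passed by 4 of 5 Rtl1-overlapping genes (3 higher in replicate 2) and 29 of 35 genes of the distal cluster (21 higher in replicate 2). Each set held genes on both sides, and the sets were not tested against each other.

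**Figure D4:**
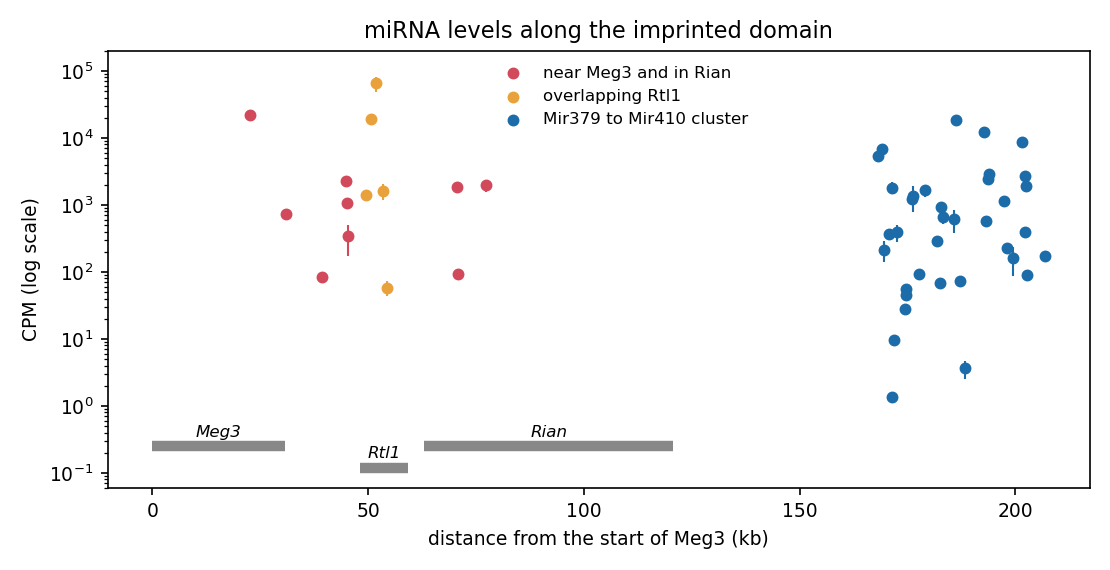
Mean CPM (log scale, points) and the range of the 2 libraries (vertical lines) of miRNA genes against their distance from the start of Meg3 in kb, for the members (red), the Rtl1-overlapping genes (orange) and the Mir379 to Mir410 cluster (blue). Grey bars mark Meg3, Rtl1 and Rian, and genes with no count are not drawn. Mir770 is the highest red point, and the most abundant gene of the domain, Mir127, lies among the orange ones.

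Between Mir770 and Mir370 the annotation holds 11 further miRNA genes, of which 7 are the set that overlaps Rtl1. Of the other 4, Mir3070a and Mir3070b were detected, both between Mir665 and Rtl1. Mir3070a had 12.2 CPM in replicate 1 and 26.2 CPM in replicate 2, and Mir3070b 24.7 and 33.9 CPM. Both lay below every member in both libraries. Mir3544 and Gm23912, which lies just before Mir370, had no count on their own strand.

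The genes nearest in level were sought among detected genes as the smallest distance in log2(CPM + 1) over the 2 libraries. For Mir770 these were Mir487b (distance 0.34) and Mir433 (0.35), both of the same domain. For Mir337 they were Mir668 (0.18), also of the domain, and Mir676 (0.23). For Mir370 they were Mir30e (0.17) and Mir484 (0.33), on other chromosomes. Over 2 libraries this measure describes level and not a shared pattern.

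The hairpins of the members tended to be rich in G and C. Their GC content ran from 52.6% (Mir337) to 70.2% (Mir770), with a median of 59.4%, against a median of 51.7% over the 1005 mouse hairpins of the RefSeq table, 52.2% over the 376 hairpins of detected genes, 56.5% over the 7 that overlap Rtl1 and 43.4% over 37 of the distal cluster. All 9 lay above the first of these medians, but Mir337, Mir493 and Mir665 were close to it, at 52.6%, 53.0% and 53.2%. The predicted folding energy had a median of -42.3 kcal/mol in the members and -32.0 kcal/mol over all hairpins. The members' hairpins are longer (median 94 bases against 79). Divided by length, the median energy per base was still lower in the members, at -0.509 against -0.406 kcal/mol. Mir770, the most abundant member, had the highest GC content and the lowest energy, -58.2 kcal/mol.

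The hairpin of Mir770 is shown for that reason, with its mature sequences in capitals.
Mir770: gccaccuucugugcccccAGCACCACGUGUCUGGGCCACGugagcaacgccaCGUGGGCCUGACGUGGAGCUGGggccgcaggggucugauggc

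Mir341 has a repetitive hairpin. The tetramer CGGU, searched on the transcribed strand only and in capitals below, occurs 7 times in its 96 bases. It was present at least once in 11.9% of the 1005 hairpins, and the next highest number in any hairpin was 3. CGGU was chosen for its repeats in this hairpin and no other tetramer was counted. The comparison therefore does not rank Mir341 for repeats in general.
Mir341: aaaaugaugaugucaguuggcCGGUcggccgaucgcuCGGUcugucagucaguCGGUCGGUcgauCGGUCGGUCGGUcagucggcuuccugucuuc
No member shared 20 bases or more with a miRNA gene elsewhere on either strand. The longest shared stretches were 12 to 14 bases, and that of Mir341, 14 bases, was with Gm23912 in the same region. Reads aligned to several places were 43.6% and 43.2% of all reads, and how many of them came from the members was not tested.

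Replicate 1 held 5183641 gene-assigned counts and replicate 2 held 5871233. Neuronal miRNA genes took 3.26% and 3.44% of counts with 8 of 11 detected. The 3 below the minimum, Mir124a-2, Mir124a-3 and Mir9-2, belong to miRNAs with several gene copies, whose levels are uncertain since reads aligned to several places are held apart from gene counts, and Mir124a-1 had 16 and 12 counts. Of other cells, oligodendrocyte genes took 0.525% and 0.668%, and vessel genes 0.931% and 0.879%. Microglia and leukocyte, choroid plexus, red blood cell, and muscle and liver genes took at most 0.174% each in either library, and Mir449b, Mir1a-1, Mir133a-1 and Mir133a-2 had no count. The part of these cell types in the members' levels was not tested, and fewer cells of a type and less RNA per cell cannot be told apart in tissue RNA. The common biological coefficient of variation between the libraries, estimated with edgeR, was 0.320.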

How the data were processed

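For each library the authors deposited unnormalized counts of reads on miRNA genes (mm10 and GENCODE M21, per the text deposited with the files). Which aligner and counter were used is not given in the sources used here. The tables have 3 count columns (strand ignored, strand of the gene, opposite strand) and 4 rows without a gene, which were left out of library sizes. In the 2 libraries these held 14.1% and 15.5% unmapped reads, 43.6% and 43.2% reads aligned to several places, and 5.04% and 4.59% reads on no feature. The stranded column was used.

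All 2202 identifiers matched GENCODE M21. CPM were computed over all gene-assigned counts, and 1 was added before taking log2. With 1 group no coefficient can be tested, so libraries were compared by a per-gene 2-sided exact binomial test (scipy 1.17.1). The test was checked on counts simulated with read sampling error alone, which is the error it assumes. That check cannot show how the test behaves with spread between samples. TMM factors and dispersion came from edgeR 4.0.16, size factors from DESeq2 1.42.0 (R 4.3.3), both over genes averaging 10 counts or more. Hairpins were folded with ViennaRNA 2.7.2. Named were all members, other detected genes between them, the 3 leaders of each comparison set, the 2 genes nearest in level to each of the 3 highest members, and detected genes sharing a seed. Genes at 0 counts that overlap or neighbour a member, the marker genes at 0, and the partners over bases 2 to 7 were named after their values were seen. The members and lists were chosen with earlier results of these data known.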

Additional observations from a re-analysis of the deposited data

Results flagged for a closer look

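Counts outside the column used for the comparisons were present for 1 gene that overlaps a member. On the strand opposite to its own, Mir3544 had 11159 counts in replicate 1 and 14127 in replicate 2, the same numbers as Mir337 had on its strand. They are above the 3 counts that a count of 0 allows. Mir3544 overlaps Mir337 on the other strand, so they are not further counts beyond those given for Mir337.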

How the results depend on the processing

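Of 44 recomputed log2 ratios of single members, 41 kept their direction and their side of the threshold. Many of these could not have changed. With a pseudocount of 0.1 or 10 CPM the adjusted p was carried over and the direction was fixed. The column that ignores strand held the same counts for every member but Mir337, and only the total differed. All changes fell under TMM and DESeq2 size factors. Mir337 reversed to -0.011 under TMM and -0.022 under DESeq2 size factors, and Mir1188 lost its call under DESeq2 size factors (0.19, adjusted p = 0.0639, exact binomial test). The log2 ratio of the members' sum without Mir770 also reversed, to -0.040 and -0.052 under these settings. That sum and its rescaling were chosen after seeing the data. TMM and DESeq2 size factors moved each member's mean level by a factor of 0.971 to 1.01. With reads aligned to several places in the total, the median member level was 488 CPM and the summed share 1.39%. Without the 10 most abundant genes in the total they were 2331 CPM and 6.64%. In the column that ignores strand the median was 785 CPM, Mir337 was at 0 and its ratio could not be computed. Asking for at least 1.5-fold left 2 members and 117 of all genes called, and at least 2-fold left 1 and 60. Calls over all genes split 186 higher in replicate 2 to 96 in replicate 1 as reported, 141 to 137 under TMM and 132 to 142 under DESeq2 size factors. All 9 members were detected at minimums of 1, 10 and 100 counts and in each library alone. Each library alone gave a median of 944 to 1179 CPM and a share of 2.92% to 3.10%. No paired analysis was possible because the 2 libraries form 1 group. No comparison of the libraries can be made with either left out. The least abundant member had 407 counts in replicate 1, and the number of libraries, 2, limits the precision of every spread.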
